A study of Mus musculus with 2 samples.

Results

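Limb patterning factors are transcription factors that give the embryonic limb its identity, its axes and its segments. The 10 genes described here are Shox2, En1, Lmx1b, Tbx4, Tbx5, Pitx1, Hand2, Meis1, Meis2 and Tbx15, out of 18194 genes that the array reads by at least 1 probe set annotated to a single gene. They were taken by symbol, and all 23 probe sets that the platform annotation gives to exactly 1 of these symbols are reported. The list was chosen by function with the knockout over heterozygote signal ratios of these arrays known, and Shox2 was selected on its high knockout signal, so the values are a description and carry no test.

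Osteoblastic cells had been prepared from tibia and femur of C57Bl/6 mouse embryos at stage E18.5. The cells of both groups carried a lacZ marker in the Ebf2 locus, were loaded with FDG, a substrate that fluoresces once the lacZ product cleaves it, and were sorted and then grown without passaging in alpha MEM with 10% serum. The knockout (Ebf2-/-) lacks the transcription factor Ebf2, and the heterozygote (Ebf2+/-), which keeps 1 intact allele, was its control; no wild type was analysed here. Each genotype is 1 Affymetrix Mouse Genome 430 2.0 array, the labels name 3 mice per genotype without saying whether their RNA was pooled, and the title of the series asks how Ebf2 acts on haematopoietic stem cells through other cells.

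In limb development Tbx5 and Tbx4 drive the outgrowth of the forelimb and the hindlimb bud, and Pitx1 gives the hindlimb its character. En1 marks the ventral ectoderm and Lmx1b the dorsal mesenchyme, Hand2 sets up the posterior mesenchyme ahead of Sonic hedgehog, and Meis1 and Meis2 mark the proximal limb. Shox2 is needed in mice for the proximal long bones, among them the femur, and Tbx15 for the size of several skeletal elements. Several of these genes are also used outside the limb bud, in the heart, the skin and the nervous system.

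The signal of the probe sets is a MAS5 intensity, in arbitrary units on a linear scale, and signals of different probe sets are not comparable as transcript levels. A background floor was taken for each array from 86 probe sets of sensory receptor genes (olfactory, taste and vomeronasal), as their 95th percentile. It was 23.8 on the knockout and 17.8 on the heterozygote array. A gene or probe set above its floor on at least 1 array is called measured. With 1 array per genotype no difference has a replicate check, no p-value is given, and 2-fold is used as the size of reference. Where a gene had several probe sets above both floors (4119 genes), their log2 ratios scattered with a pooled SD of 0.44, a factor of 1.36. This SD covers the error between probe sets and leaves out animals and cultures.

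The targeted gene itself was near background. The 3 probe sets of Ebf2 read 20.6, 14.4 and 25.1 on the knockout array and 24.9, 13.7 and 14.4 on the heterozygote array, so they neither check nor contradict the genotype labels. Of the osteoblast markers, 4 were above background on both arrays and differed between them by their brightest probe sets. Col1a1 and Col1a2, the chains of the main bone collagen, both had the higher signal in the knockout, Col1a1 by 2.33-fold and Col1a2 with 15008 there and 8597 in the heterozygote, and alkaline phosphatase, Alpl, was 2.04-fold higher, with 51.8 in the knockout and 25.4 in the heterozygote. Sp7, an osteoblast transcription factor, had 53.3 in the knockout and 83.7 in the heterozygote, 1.57-fold lower. By contrast Ibsp, Dmp1 and Phex, genes of mineralizing osteoblasts and osteocytes, were below background on both. The osteoblast markers Runx2, Bglap and Spp1 had no probe set annotated to a single gene, so nothing is reported for them. The 3' over 5' ratio of beta-actin, a sign of RNA integrity, was 2.79 on the knockout and 1.97 on the heterozygote array. The part of this ratio in the results was not tested.

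In the knockout cells Shox2 stood out among the limb factors, with a signal at least 12.1-fold higher than in the heterozygote by 1 of its 2 probe sets. En1 was at least 2.65-fold higher. Meis1 and Meis2 had the higher signal in the knockout by every probe set above background, under 2-fold, and Lmx1b and Tbx15 differed by no more than 1.21-fold either way. Tbx4, Tbx5, Pitx1 and Hand2 were not above background on either array. In all 6 of the 10 genes were measured. Of these, 2 passed 2-fold upward in the knockout, as did 6.30% of all 11785 measured genes, and 0 passed it downward, as did 3.46% of all. Of the 11 measured probe sets of the limb factors 2 passed 2-fold upward and 0 downward, against 6.58% and 3.61% of all 20401 measured probe sets. Scaling to spike-in transcripts, which takes 0.13 off every log2 ratio, changes the shares of all genes to 4.80% upward and 4.73% downward and leaves Shox2 and En1 past 2-fold. The same ratios helped to choose the genes, so nothing is read from these shares.

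**Figure D1:**
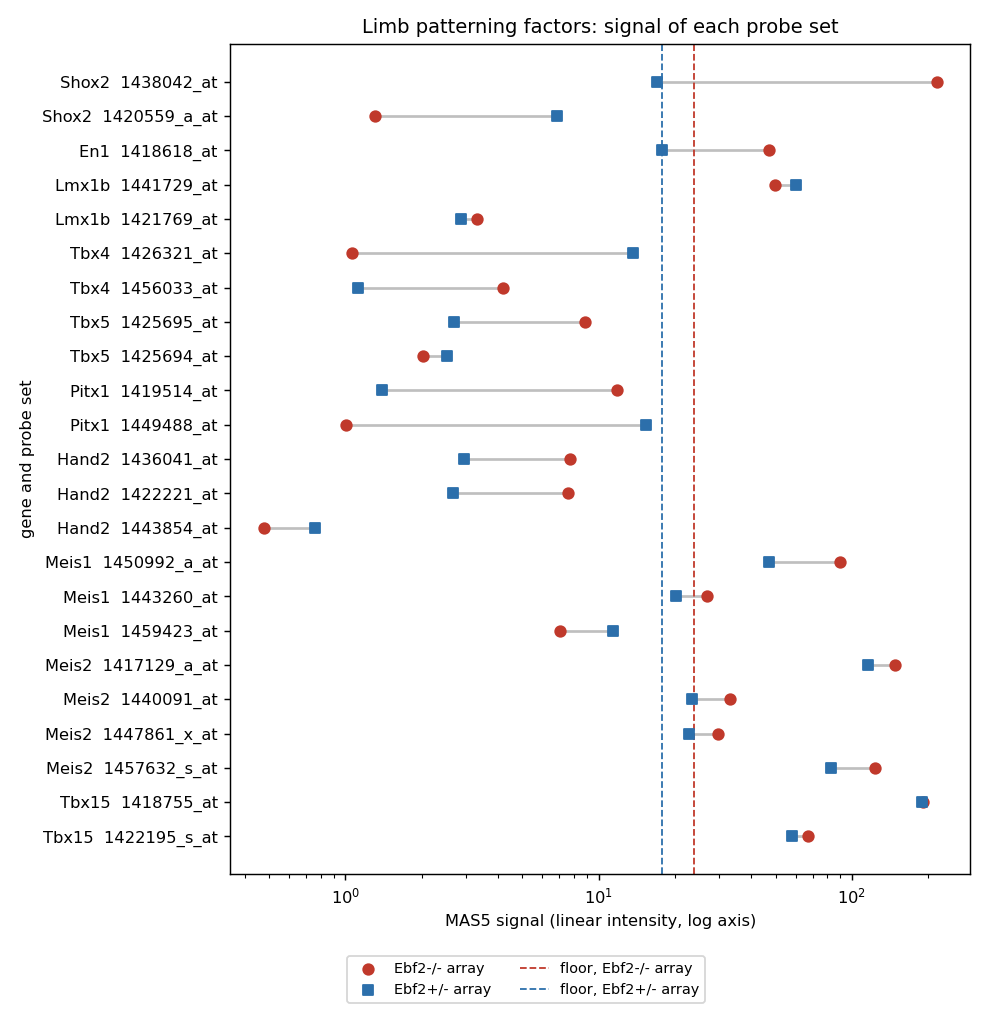
MAS5 signal (horizontal log axis, arbitrary units) of all 23 probe sets of the 10 limb factors (vertical axis), with a circle for the Ebf2-/- array, a square for the Ebf2+/- array and dashed lines for the floors of 23.8 and 17.8. The first Shox2 probe set spans the widest gap among the 11 measured probe sets, and 12 probe sets lie left of both floors.

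The sequences just ahead of the annotated starts of Shox2 and En1 are shown because these are the genes past 2-fold. They are the 250 bases before the start from RefSeq (GRCm38.p6), at chr3:66981772-66982021 on the minus strand for Shox2 and at chr1:120602237-120602486 on the plus strand for En1, written 5′ to 3′ along the gene. Capitals mark matches, on either strand, to the searched motifs: the core of the EBF site CCCNNGGG, the T-box site AGGTGTGA, the Meis core TGACAG, the homeodomain core TAATTA, the TATA box TATAAA and the CCAAT box.
Shox2: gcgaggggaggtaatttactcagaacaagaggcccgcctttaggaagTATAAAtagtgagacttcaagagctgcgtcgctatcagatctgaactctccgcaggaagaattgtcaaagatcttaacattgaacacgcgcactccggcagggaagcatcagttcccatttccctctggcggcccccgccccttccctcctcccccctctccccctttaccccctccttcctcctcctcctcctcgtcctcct
En1: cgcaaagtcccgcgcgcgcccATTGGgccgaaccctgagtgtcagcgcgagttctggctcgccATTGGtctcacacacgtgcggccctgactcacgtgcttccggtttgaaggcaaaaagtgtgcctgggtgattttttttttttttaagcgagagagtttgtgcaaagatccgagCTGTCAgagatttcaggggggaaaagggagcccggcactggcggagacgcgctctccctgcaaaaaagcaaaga
The Shox2 window held 1 TATAAA, whose first base lies 203 bases before the start. The En1 window held 1 Meis core, 74 bases before the start, and 2 CCAAT boxes, 229 and 187 bases before it, all on the opposite strand. No matches overlapped in these windows.

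Windows of this kind were listed for 7 of the 10 genes. Those of Tbx4, Meis1 and Meis2 lie inside the annotated span of the gene and that of Lmx1b overlaps it. The EBF core was in 0 of these 7 windows and in 11.8% of all 32851 windows of the same length, so the letters CCCNNGGG were not found there, which says nothing about binding of EBF proteins elsewhere. The T-box site was in 0 of the 7 and in 1.12% of all. The Meis core was in 1 of the 7 (En1) and in 15.9% of all, the homeodomain core in 1 (Hand2) and in 4.84%, TATAAA in 3 (Shox2, Tbx4 and Meis2) and in 12.4%, and CCAAT in 5 and in 33.8%. The share of G and C in the 7 windows was 47.6% to 65.2%, against a median of 52.4% over all. A match is a run of letters and not a shown binding site.

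Shox2, a short stature homeobox factor of the proximal limb, read 216 on the knockout array and 17.0 on the heterozygote array by probe set 1438042_at. The knockout signal was above all 86 receptor probe sets, whose highest value on that array was 33.5, while the heterozygote signal lay just under its floor of 17.8. With this floor and scaling the ratio is therefore a lower bound of 12.1-fold (log2 ratio 3.60). Placed at that bound, Shox2 lay at percentile 99.9 of the 11176 measured genes with a fold, some of which are themselves at a bound. The other probe set of Shox2, 1420559_a_at, read 1.31 on the knockout array and 6.85 on the heterozygote array, below both floors. The probe sets of Shox2 thus gave different readings, since 1438042_at was above background on the knockout array and 1420559_a_at on neither. The platform annotation gives a RefSeq transcript record as the source of 1420559_a_at and a record of another kind for 1438042_at. The high Shox2 signal therefore rests on 1438042_at alone and was not seen by the probe set with the RefSeq record. Which part of the transcript each of them reads was not analysed here.

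With a pseudocount of 50 in place of the floor, the log2 ratio of Shox2 was 1.99. As a mean over its probe sets it was 2.01, where the probe set below both floors enters at the log2 ratio of the floors, 0.42, and 1.80 where that probe set enters at 0. Each of these stays past 2-fold. Shox2 lay between 3.46 and 3.67 under the other scalings and floors.

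By a rule of nearness, the genes with the 2 signals most like those of the Shox2 probe set were Wfdc18, Aoc3, Pdia4, Scg2 and Avpr1a. Their distance from it on the log2 scale over the 2 arrays was 0.28 to 0.56. Aoc3, an amine oxidase of the cell surface, read 263 in the knockout and 19.2 in the heterozygote. Avpr1a, a receptor for vasopressin, read 225 in the knockout and 26.2 in the heterozygote. Scg2, a protein of secretory granules, was like Shox2 seen on the knockout array only, with 150.4 there and 9.47 in the heterozygote. The 2 arrays give a pattern of 2 values, so such nearness is weak and carries no p-value.

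**Figure D2:**
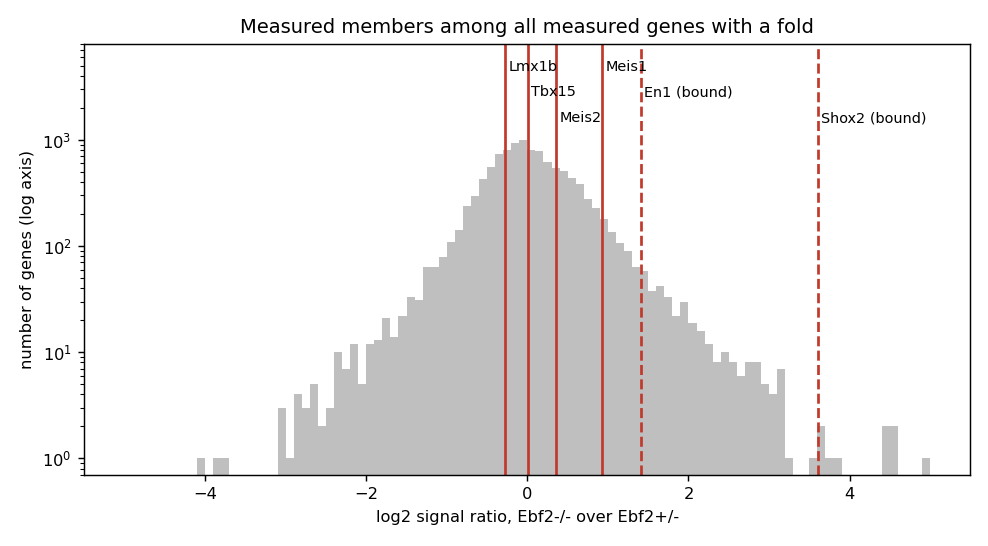
Number of genes (vertical log axis) by log2 signal ratio of Ebf2-/- over Ebf2+/- (horizontal axis) for the 11176 measured genes with a fold, with vertical lines at the 6 measured limb factors, dashed where the ratio is a bound. Shox2 at 3.60 lies in the sparse right tail, and Lmx1b, Tbx15 and Meis2 lie within the main body.

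Of the factors of the dorsal and ventral limb, En1, the ventral homeobox factor, has 1 probe set. It read 47.2 on the knockout array, above all 86 receptor probe sets, and 17.7 on the heterozygote array, just under the floor of 17.8. The bound of 2.65-fold corresponds to a log2 ratio of 1.40 and to percentile 96.9 of the measured genes. Under the other scalings and floors the log2 ratio of En1 lay between 1.26 and 1.41. Both signals are low, and with a pseudocount of 50 the log2 ratio was 0.52, under 2-fold. Among keratinocyte markers, looked at because En1 is an ectodermal gene in the limb, Krt14 was below both floors, at 1.28 in the knockout and 5.16 in the heterozygote. Krt5 had 12.9 and Trp63 14.2 in the knockout, under its floor, against 20.8 and 19.5 in the heterozygote, just above its floor. The summed signal of the 5 keratinocyte markers was 142 in the knockout and 217 in the heterozygote, most of it from Krt10 with 105 in the knockout and 156 in the heterozygote. The part of such cells in the En1 signal was not tested.

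Lmx1b, the LIM homeobox factor of the dorsal mesenchyme, was above background on both arrays by 1 of its 2 probe sets. That probe set read 49.5 in the knockout and 60.0 in the heterozygote, a log2 ratio of -0.28, which is less than the SD between probe sets. The other probe set read 3.31 in the knockout and 2.86 in the heterozygote, below both floors. As for Shox2, the annotation gives a RefSeq transcript record only for this probe set below both floors. Ldb1, the cofactor that LIM homeodomain proteins bind, had 234 in the knockout and 148 in the heterozygote, 1.59-fold higher.

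The TALE homeobox factors Meis1 and Meis2 mark the proximal limb and bind DNA with Pbx proteins. All 6 of their probe sets above background had the higher signal in the knockout, each under 2-fold. Meis1 read 89.6 in the knockout and 47.0 in the heterozygote by its brightest probe set, 1.91-fold, just under the reference size. Its second probe set read 26.9 in the knockout and 20.2 in the heterozygote, 1.33-fold, close to the floors. Its remaining probe set read 7.02 in the knockout and 11.4 in the heterozygote, below both floors. The brightest Meis1 probe set ends in _a_at, a name for probe sets that read several transcripts of a gene; without probe sets of such shared endings the log2 ratio was 0.41 in place of 0.93.

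All 4 probe sets of Meis2 were above background on both arrays. They read 148, 123, 32.9 and 29.5 in the knockout, against 116, 82.4, 23.3 and 22.7 in the heterozygote in the same order. The folds were thus 1.28, 1.49, 1.41 and 1.30, each in the same direction. The probe sets at 32.9 and 29.5 in the knockout lay close to the floors, as did the second of Meis1. The floors themselves had a log2 ratio, knockout over heterozygote, of 0.42. Probe sets of one gene share the same RNA and are not replicates, and log2 ratios of 0.35 to 0.58 for Meis2 are about as large as the SD of 0.44 between probe sets.

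Tbx15, a T-box factor of mesenchyme and skeleton, had nearly the same signal on both arrays. Its brighter probe set read 190.5 in the knockout and 189.0 in the heterozygote, a fold of 1.01. The second read 66.9 in the knockout and 58.3 in the heterozygote, a fold of 1.15. With the arrays scaled to spike-in transcripts the log2 ratio of Tbx15 was -0.12 in place of 0.01, so the direction depends on the scaling.

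The genes of limb type and of the posterior limb were not above background, although the bones sampled belong to the hindlimb. The 2 probe sets of Tbx4, the hindlimb T-box factor, read 1.06 and 4.18 in the knockout and 13.7 and 1.12 in the heterozygote. Those of Pitx1, the hindlimb homeobox factor, read 11.8 and 1.003 in the knockout and 1.39 and 15.4 in the heterozygote. For both genes the probe sets pointed in opposite directions, and no signal passed its floor. Tbx5, the forelimb factor, read 8.82 and 2.02 in the knockout and 2.70 and 2.53 in the heterozygote. Hand2, the posterior bHLH factor, read 7.72, 7.55 and 0.477 in the knockout and 2.95, 2.66 and 0.760 in the heterozygote. No fold is given for these 4 genes and their 9 probe sets. Signals under the floor set only an upper bound, and expression below what these probe sets detect cannot be told from none.

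Related limb and mesenchyme genes from 5 lists (77 genes, 69 of them with a probe set of 1 symbol) were compared in the same way. Upward of 2-fold in the knockout were 6 of 41 measured genes, 14.6% against 6.30% of all measured genes, and 0 were lower by that size, against 3.46%. Their median log2 ratio was 0.38, against 0.03 over all measured genes. Of the 39 that had a fold, 27 had the higher signal in the knockout and 12 the lower. With a pseudocount of 50, 1 gene, Six2, was at least 2-fold higher, as were 2.38% of all measured genes. These counts describe 2 arrays and do not set the lists apart from other genes.

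**Figure D3:**
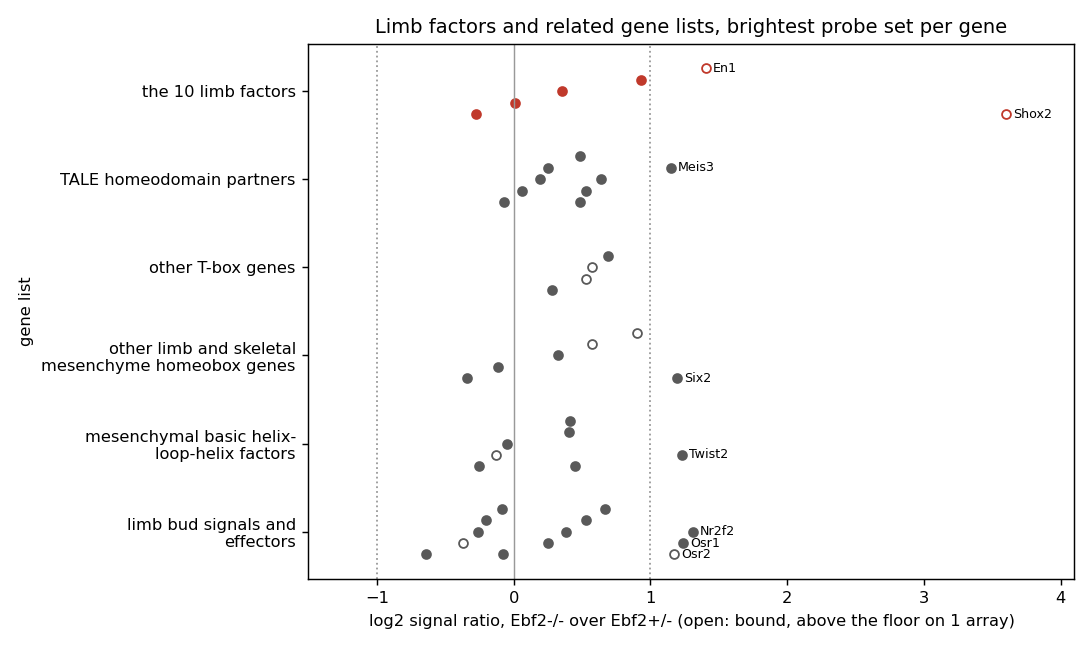
Log2 signal ratio of Ebf2-/- over Ebf2+/- (horizontal axis) for each measured gene with a fold, by list (vertical axis), with dotted lines at 2-fold and open circles for bounds. The 10 limb factors are in the top row, where En1 and Shox2 pass the right-hand line, and 6 genes of the other lists do so, by 2.22-fold to 2.48-fold.

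Among other TALE homeobox genes, 1 of 9 measured genes was past 2-fold. Beside this and the counts of the lists below stand 6.30% upward and 3.46% downward of all measured genes. Meis3, the other Meis gene, read 93.4 in the knockout and 42.1 in the heterozygote, 2.22-fold higher, by a single probe set. The brightest members did not approach that size: Irx3 had 383 in the knockout and 335 in the heterozygote, and Pbx3, a DNA-binding partner of Meis proteins, 335 in the knockout and 351 in the heterozygote. The median log2 ratio of the list was 0.48, against 0.03 over all measured genes.

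Of the other T-box genes 4 of 11 were measured and 0 passed 2-fold. Tbx18, a T-box factor of mesenchymal progenitors, had 220 in the knockout and 136 in the heterozygote, 1.61-fold. Mga had 130 in the knockout and 107 in the heterozygote. Tbx2 and Tbx3, which are active at the margins of the limb bud, were seen on the knockout array only, at 25.8 and 26.5, just above its floor, against 10.4 and 10.1 in the heterozygote. Their bounds were 1.45-fold and 1.49-fold.

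Of the other limb and skeletal homeobox genes 7 were measured. Six2, a homeobox factor of several embryonic mesenchymes, was 2.29-fold higher, with 477 in the knockout and 208 in the heterozygote, and was past 2-fold under every setting tried. Prrx1 and Prrx2, paired-type factors that mark limb mesenchyme, were the brightest. Prrx1 read 2868 in the knockout and 2295 in the heterozygote by its brightest probe set, 1.25-fold, while 4 further measured probe sets ranged from 0.99-fold to 2.78-fold. Prrx2 read 1292 in the knockout and 1401 in the heterozygote. En2 and Lmx1a, the closest relatives of En1 and Lmx1b, were below both floors.

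Of the mesenchymal bHLH factors 8 were measured, and Twist2, a repressor of osteoblast maturation, was 2.35-fold higher, with 102 in the knockout and 43.6 in the heterozygote. The brightest were Tcf4, with 787 in the knockout and 578 in the heterozygote, and Tcf12, with 502 in the knockout and 598 in the heterozygote; both encode partners of tissue-specific bHLH proteins. Hand1, the relative of Hand2, had 18.8 in the knockout, under its floor, and 26.0 in the heterozygote.

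Of the limb bud signals and effectors 13 of 23 were measured. The signals themselves, Fgf8, Fgf10, Wnt7a and Shh, were below both floors. Past 2-fold were Nr2f2, Osr1 and Osr2. Nr2f2, a nuclear receptor of mesenchyme, read 202 in the knockout and 81.6 in the heterozygote, 2.48-fold, and 5.27-fold and 1.59-fold by its other probe sets above background on both arrays. Its probe sets above background on the heterozygote array only did not show this, with 22.8 and 13.0 in the knockout and 20.2 and 24.1 in the heterozygote. Osr1, a zinc finger factor of connective tissue progenitors, had 172 in the knockout and 73.0 in the heterozygote, 2.36-fold. Its relative Osr2 read 40.2 in the knockout and 0.785 in the heterozygote, at least 2.26-fold against the floor, while its other probe set was below both floors. The brightest members were Tulp3, with 598 in the knockout and 715 in the heterozygote, and Nr2f1, with 552 in the knockout and 383 in the heterozygote. Gli3, the hedgehog effector that limits the number of digits, had 286 in the knockout and 241 in the heterozygote.

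Markers of other cell types differed between the same arrays. Of 12 macrophage and leukocyte markers 11 were measured and all 11 were lower by at least 2-fold in the knockout, with a summed signal of 1787 in the knockout and 8033 in the heterozygote. Of 11 chondrocyte markers 9 were measured and 7 were at least 2-fold lower, with a sum of 4245 in the knockout and 15319 in the heterozygote. Of 8 Schwann cell and neuron markers 6 were measured and 4 were at least 2-fold lower, with a sum of 318 in the knockout and 1073 in the heterozygote. Of 7 adipocyte markers 6 were measured, of which 5 were higher and 1 was lower by at least 2-fold, with a sum of 2893 in the knockout and 818 in the heterozygote. Of 6 tendon markers all 6 were measured and 2 passed 2-fold upward, Thbs4 by 7.12-fold and Chodl by at least 6.39-fold. Their sum was 8535 in the knockout and 11619 in the heterozygote, most of it from Fmod with 5970 and 9720. By gene, 4 tendon markers were higher in the knockout and 2 lower. Of 8 pericyte and smooth muscle markers 7 were measured. Of these Abcc9 was at least 6.53-fold higher, Kcnj8 at least 3.32-fold higher and Mcam at least 2.17-fold lower. The sum was 15951 in the knockout and 10986 in the heterozygote, most of it from Acta2 with 14479 and 9803. By gene, 4 of these markers were higher in the knockout and 3 lower. Of 7 skeletal muscle and 6 endothelial markers 1 and 2 were measured, with sums of 159.6 and 69.8 in the knockout and 70.0 and 61.8 in the heterozygote. In such mixed RNA fewer cells of a type and less RNA per cell cannot be told apart. The part of these cell types in the Shox2, En1 and Meis signals was not tested.

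**Figure D4:**
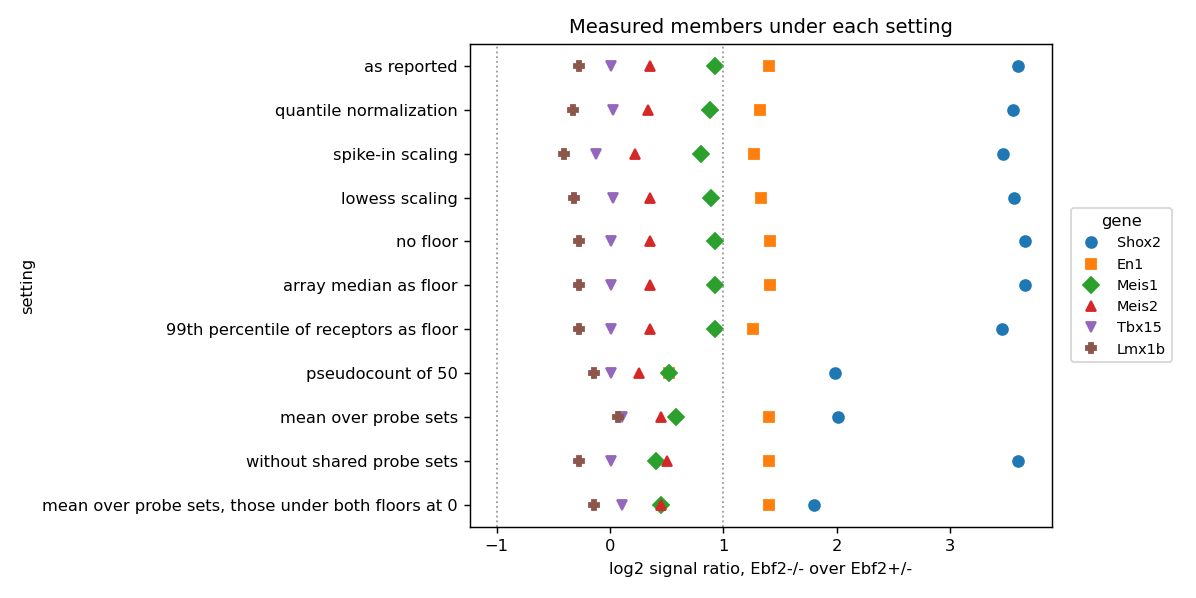
Log2 signal ratio of Ebf2-/- over Ebf2+/- (horizontal axis) of the 6 measured limb factors under the reported setting and 10 others (vertical axis), with dotted lines at 2-fold. Shox2 lies right of the line in every row, down to 1.80, and En1 crosses to its left with the pseudocount of 50, at 0.52.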

How the data were processed

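The deposited values are the authors' MAS5 signal intensities, linear, for 45101 probe sets on 2 arrays. The submitters' processing notes name MAS5 without a version. Leaving out the lowest and highest 2%, the mean intensity was 100.0 on both deposited arrays, and scaling of this kind hides a shift common to most genes. The number of arrays limits the precision.

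Symbols came from the platform annotation: 34958 probe sets had 1 symbol, 932 several and 9211 were not listed. All 10 symbols matched the mouse reference table (GRCm38.p6). Each gene was represented by its brightest probe set (mean log2 signal). Signals under the floor were raised to it, and the log2 ratio of knockout over heterozygote is a lower bound ("at least") where 1 array is above its floor. No fold is given for 609 of 11785 measured genes, seen on 1 array at no more than the floor of the other; they enter medians at their floor-set value. The genes, the lists, the floor and the 2-fold size were chosen with earlier results of these data known. Named genes are all limb factors, Ebf2, the related genes past 2-fold, the 2 brightest of each related list and the 5 nearest to Shox2; others were named after their values were seen. Python 3.11.15, pandas 2.3.3 and statsmodels 0.14.6 (lowess) were used, and the procedure was tested on simulated data. Alternatives were 3 other scalings, 3 other floors, a pseudocount and 2 other rules for probe sets.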

Additional observations from a re-analysis of the deposited data

How the results depend on the processing

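No paired analysis was possible because each genotype has 1 array, and no array could be left out. Under 9 alternatives and 2 chosen after seeing the data, the log2 ratio of Shox2 (3.60) fell under 2.1 in 3: 1.99 with a pseudocount of 50, 2.01 as a mean over probe sets and 1.80 as that mean with probe sets under both floors at 0. The pseudocount shrinks ratios of low signals by construction, and the means average in the Shox2 probe set below background. With the pseudocount 1 limb factor in place of 2 was at least 2-fold higher, as a count of genes and of probe sets (1 of 11), and 1 related gene in place of 6. The share of all measured genes at least 2-fold higher also fell with it, from 6.30% to 2.38%. Without a floor 1 related gene, Lhx2 (0.441 in the knockout, 20.1 in the heterozygote), was at least 2-fold lower in place of 0, and 9 were higher. Of all measured genes 8.46% were then at least 2-fold higher and 7.91% lower. The median log2 ratio lay between 0.39 and 0.64 for the limb factors and between 0.24 and 0.41 for the related genes. Lmx1b turned to 0.07 as a mean over probe sets, where its probe set below both floors enters at 0.42, and Tbx15 to -0.12 with spike-in scaling. Osr2 and Nr2f2 were under 2-fold in several settings, down to log2 ratios of 0.59 and 0.77. Meis3, Osr1 and Twist2 were so with the pseudocount only, at 0.64, 0.85 and 0.70. Without probe sets of shared endings Meis3 had no probe set left and Osr2 none above background. In that setting 4 related genes in place of 6 were at least 2-fold higher, beside 6.72% of all measured genes. As a mean over probe sets the count was also 4, beside 4.52% of all. The settings without a floor and with the pseudocount kept the genes measured with the floor. Without replicates, no setting shows how far animals or cultures vary.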
